A study of Mus musculus with 71 samples.

Results

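HFS ad lib mice, fed a high-fat sucrose diet without restriction, were compared with NC ad lib mice, fed normal chow, at 1 h after training in object recognition memory (ORM+1 h). Each diet was represented by 6 mice, 12 of the 71 mice in the deposited counts, and the members are all genes whose counts sum to 10 or more, 30141 of the 57010 genes counted. The animals were male wild-type C57BL/6J mice placed on their diet at 3 weeks of age for 12 weeks, housed 6 per cage, with fat giving 45% of the energy of the HFS diet and 8% of that of chow and with 50% of the HFS carbohydrate as sucrose. ORM training was a 10 min exposure to objects between zt2 and zt4, hours counted from lights on. Untrained mice of the same diets killed in the home cage at zt3 (HC zt3), 6 per diet, served to ask whether a diet difference was also present without training. Cages were not given in the labels, so diet and cage cannot be told apart, and each library is the hippocampus of 1 mouse, with all its cell types.

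The measurement was pS6-TRAP followed by RNA sequencing, in which an antibody to ribosomal protein S6 phosphorylated at its terminal serines pulls down ribosomes together with the mRNAs they carry. Phosphorylation of S6 increases in neurons after activity, so the purified mRNA is weighted toward recently active cells without being restricted to them. Learning is known to induce immediate early genes such as Fos and Npas4 within an hour in the hippocampus, followed by effectors that act at synapses. Diets rich in fat and sugar are known to affect hippocampal memory, and microglia, astrocytes and lipid metabolism have been studied in that context. The question of the comparison was how the diet alters the set of mRNAs on these ribosomes shortly after training.

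Total counts per mouse ranged from 49761087 to 57984841 in NC ad lib mice at ORM+1 h (median 54913026.5) and from 49188472 to 58659920 in HFS ad lib mice (median 56673186). Values are given as CPM, counts scaled to a common library size after TMM normalization, which depend on transcript length and are compared here between mice and not between genes. A log2 difference is HFS ad lib minus NC ad lib. Markers of hippocampal cells were detected in all 12 mice. Summed over 8 neuronal markers, the level was 12547 to 14287 CPM (median 12767) in NC ad lib mice and 12999 to 15468 CPM (median 14164) in HFS ad lib mice, with Camk2a the most abundant in every mouse. The 8 markers of CA pyramidal cells and the 8 of dentate gyrus granule cells were also present in every mouse.

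The libraries differed in their content of choroid plexus, the epithelium that secretes cerebrospinal fluid and borders the hippocampus. The 14 choroid plexus markers, with Ttr the most abundant, summed to 153 to 16676 CPM (median 5581) in NC ad lib mice and to 221 to 13732 CPM (median 2085) in HFS ad lib mice, and none was at 0. Levels were low, at 768 CPM or below, in NC ad lib mice 2 and 5 and in HFS ad lib mice 1, 2 and 6, and the diets overlapped over nearly the whole range. The first principal component of the 12 mice held 49% of the variance of 10062 genes and was led by choroid plexus genes such as Ttr, Folr1 and Kcne2. The second held 17% and nearly separated the diets, with 5 of 6 NC ad lib mice on its positive side and 5 of 6 HFS ad lib mice on its negative side. NC ad lib mouse 4 (-0.208) and HFS ad lib mouse 2 (0.147) lay with the other diet. Its negative side was led by mt-Nd2, mt-Nd5, mt-Co1 and long noncoding RNAs such as Meg3, Miat and Snhg11, and its positive side by astrocyte genes such as Slc1a3, Slc7a10 and Aldoc. With the choroid plexus score as a covariate the count of genes past the threshold was again 0, and the 108 genes named by rule kept the sign of their difference. Slc7a10, Gabbr2, Gabrb1, Spred3 and Fads2, described below with their lists, were then no longer at p under 0.05. Others came to p under 0.05, among them Aldh1a1 of the thyroid hormone list. The median log2 difference of the nuclear respiratory chain list went from -0.039 to -0.021, and that of the MAPK feedback list from 0.018 to -0.0085. Among the untrained mice, HFS ad lib mice 5 and 6 at HC zt3 stood apart from the other 4 of their group in astrocyte genes and Fos, so most values that use HC zt3 are also given without them, a choice made after their values were seen.

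No gene passed an adjusted p under 0.05 between the diets at ORM+1 h. By the quasi-likelihood test of edgeR, adjusted by the Benjamini-Hochberg method over 30141 genes, the smallest adjusted p was 0.469 and 0 genes (0%) were called. At an unadjusted p under 0.05 there were 2881 genes (9.56%), 1532 higher (5.08%) and 1349 lower (4.48%) in HFS ad lib mice. The Wald test of DESeq2 called 25 genes, 24 higher and 1 lower, with 1988 genes at an unadjusted p under 0.05. The same comparison at HC zt3 also called 0 genes, with 2527 (8.38%) at an unadjusted p under 0.05, 4.65% higher and 3.74% lower, and 0 called by DESeq2, and without HFS ad lib mice 5 and 6 at HC zt3 the count at p under 0.05 was 1874. A test of the difference between the diet differences with and without training, the interaction, called 0 genes in both tools, with 1884 genes (6.25%) at an unadjusted p under 0.05, 2.81% higher and 3.44% lower, and 1288 without those mice. Most differences were small, and the median absolute log2 difference was 0.105 over the 14769 genes with a mean of at least 1 CPM, and the median half-width of its 95% interval was 0.213. Counts of genes at p under 0.05 below are unadjusted and come from the same test. The shares of all genes to set beside the count of a list were 5.08% higher and 4.48% lower at ORM+1 h. At HC zt3 they were 4.65% and 3.74%, and for the interaction 2.81% and 3.44%, with all mice. These shares were not matched for gene span, with which shares differed among protein-coding genes, as given below with the respiratory chain genes. Every adjusted p of this edgeR model was 0.469 or more at ORM+1 h, 0.588 or more at HC zt3 and 0.711 or more for the interaction, so its values describe these mice and are not calls. The smallest adjusted p of DESeq2 was 0.0111 at ORM+1 h and 0.165 at HC zt3, and with only the groups compared the edgeR model gave 0.0469, 0.107 and 0.244 for the 3 comparisons. Ranges under chow and under HFS are over the 6 NC ad lib and the 6 HFS ad lib mice at ORM+1 h.

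**Figure D1:**
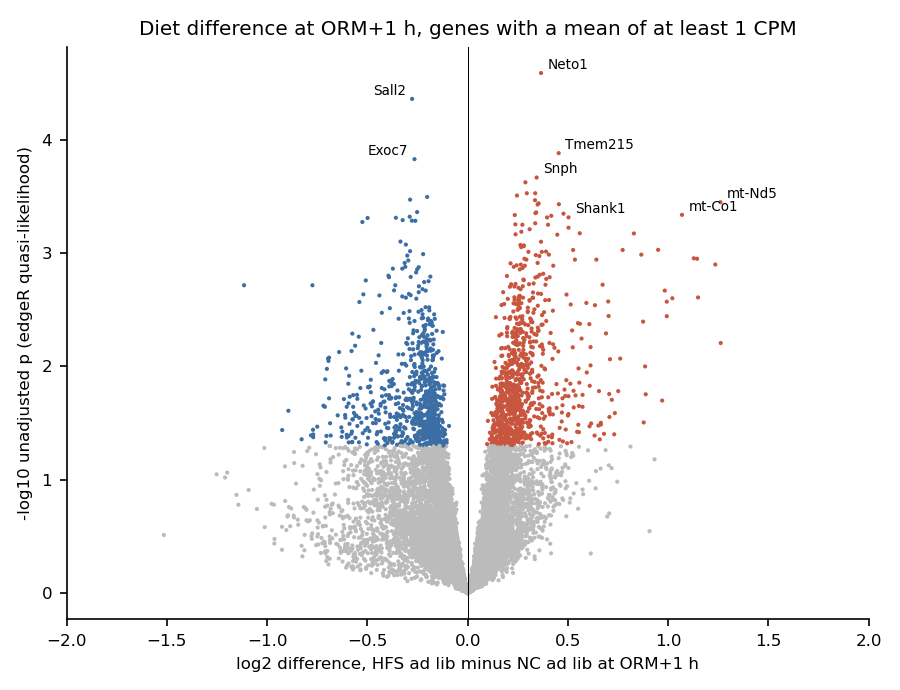
Log2 difference, HFS ad lib minus NC ad lib, at ORM+1 h (horizontal axis) against -log10 of the unadjusted p (vertical axis) for the 14769 genes with a mean of at least 1 CPM, 1 point per gene. Colored points have an unadjusted p under 0.05 (red higher, blue lower in HFS ad lib mice), and the mitochondrially encoded genes mt-Nd5 and mt-Co1 lie near a log2 difference of 1 while most points lie within 0.5 of 0.

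The gene with the smallest p was Neto1, an auxiliary subunit of kainate and NMDA receptors. Neto1 ranged from 128 to 169 CPM (median 137) under chow and from 164 to 223 CPM (median 179) under HFS. Of the 6 HFS ad lib mice, 5 lay above all NC ad lib mice, with a log2 difference of 0.37 (SE 0.081, adjusted p = 0.469) and a 95% interval of 0.20 to 0.53. It was also higher in HFS ad lib mice at HC zt3, by 0.23 (SE 0.081), and its interaction was 0.14 (SE 0.11). Without HFS ad lib mice 5 and 6 at HC zt3 these were 0.23 and 0.13. Next among the higher genes were Tmem215 at 0.45 (SE 0.11, adjusted p = 0.469), Snph, the syntaphilin that anchors axonal mitochondria, at 0.34 (SE 0.088, adjusted p = 0.469), Fgf13, an intracellular regulator of sodium channels, at 0.29 (SE 0.074, adjusted p = 0.469), and Fam78b at 0.34 (SE 0.088, adjusted p = 0.469). Snph was level between the diets at HC zt3, at -0.012 (SE 0.088), with an interaction of 0.36 (SE 0.12), or 0.03 and 0.31 without the same 2 mice. Fam78b ranged from 29.9 to 34.8 CPM (median 32.3) under chow and from 38.9 to 43.8 CPM (median 40.6) under HFS, and its groups did not overlap.

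Among lower genes the smallest p belonged to Sall2, a zinc finger transcription factor (ENSMUSG00000049532, GRCm39 chromosome 14 from 52548629 to 52566219). Sall2 ranged from 87.2 to 106 CPM (median 97.4) under chow and from 71.7 to 88.4 CPM (median 79.6) under HFS. The groups overlapped by 1 NC ad lib and 1 HFS ad lib mouse at their edges, and the log2 difference was -0.28 (SE 0.063, adjusted p = 0.469). The exocyst subunit Exoc7 followed at -0.27 (SE 0.066, adjusted p = 0.469), then the proteasome subunit Psmd2 at -0.20 (SE 0.053, adjusted p = 0.469), Sde2, which acts in replication and splicing, at -0.29 (SE 0.076, adjusted p = 0.469), and Fdft1, the squalene synthase of the cholesterol pathway, at -0.25 (SE 0.068, adjusted p = 0.469). Psmd2 was the 1 lower gene that DESeq2 called. The higher genes that DESeq2 called included Neto1, Snph and Fgf13 together with Map2, the dendritic microtubule protein, Ncs1, a neuronal calcium sensor, and the scaffolds Shank1 and Shank3.

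The 6 mice of each diet did not overlap for 88 genes higher (0.596%) and 42 genes lower (0.284%) in HFS ad lib mice among the 14769 genes with a mean of at least 1 CPM. Dzip1, a ciliary protein, was 1 of the higher ones, at a log2 difference of 0.46 (SE 0.12, adjusted p = 0.469), and it was the single gene past the threshold in edgeR when the model held only these 12 mice and no replicate block, with an adjusted p of 0.0469. Others picked here after their values were seen were the adenylyl cyclase Adcy5 at 0.43 (SE 0.13), the L-type calcium channel Cacna1c at 0.22 (SE 0.11) and the potassium channel Kcnq5 at 0.30 (SE 0.099). Lower ones included the sterol carrier Scp2 at -0.30 (SE 0.10), the oxysterol-binding protein Osbp at -0.13 (SE 0.048) and the AMP kinase subunit Prkag1 at -0.19 (SE 0.074).

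Genes of the excitatory synapse stood mostly on the higher side. Of 36 glutamate receptor and postsynaptic genes, 32 had a log2 difference above 0 and 14 had p under 0.05, all 14 higher, against 5.08% of all genes. Their median log2 difference was 0.17, beside 0 over all genes, and 0 of the 36 passed the adjusted threshold in the 12-group edgeR model without a replicate block, while Shank1 and Shank3 did in DESeq2. Shank1, a master scaffold of the postsynaptic density (ENSMUSG00000038738, chromosome 7 from 43959615 to 44009996), ranged from 255 to 312 CPM (median 277) under chow and from 330.4 to 479 CPM (median 404) under HFS. All 6 HFS ad lib mice lay above all 6 NC ad lib mice, with a log2 difference of 0.50 (SE 0.14, adjusted p = 0.469). At HC zt3 it ranged from 286 to 451 CPM under chow and from 317 to 477 CPM under HFS, where the groups overlapped. Its relative Shank3 ranged from 144 to 164 CPM (median 154) under chow and from 169.5 to 236 CPM (median 197) under HFS, again without overlap, and differed by 0.36 (SE 0.10, adjusted p = 0.481), while Shank2 was higher by 0.32 (SE 0.12) with overlap between the groups.

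Partners of AMPA receptors showed the same order of size. Cacng2, the stargazin that carries AMPA receptors to synapses, differed by 0.32 (SE 0.11), Cacng7 by 0.32 (SE 0.12) and the cornichon Cnih2 by 0.24 (SE 0.095). Dlg4, which encodes PSD-95, ranged from 1225 to 1681 CPM (median 1344) under chow and from 1552 to 1825 CPM (median 1645) under HFS, a difference of 0.25 (SE 0.083). The kainate receptor subunits Grik5 and Grik4 differed by 0.37 (SE 0.14) and 0.25 (SE 0.10), and the NMDA receptor subunit Grin2a by 0.27 (SE 0.12). The pore-forming AMPA receptor subunits that dominate in hippocampus were not among them, Gria1 at -0.0017 (SE 0.093) and Gria2 at -0.024 (SE 0.094). Dlg3, at -0.13 (SE 0.067), and Cacng4, at -0.045 (SE 0.17), were the lower members with the smallest p, the latter at 0.020 without HFS ad lib mouse 3 and 0.0060 without NC ad lib mouse 2. At HC zt3 the median of the 36 genes was 0.041, with 2 higher at p under 0.05. Without HFS ad lib mice 5 and 6 at HC zt3 it was 0.11, with 6 higher, and the median interaction went from 0.12 with all mice to 0.043. Shank3 had an interaction of 0.32 (SE 0.15), or 0.28 without these 2. The neuronal marker Camk2a, the alpha subunit of the main synaptic kinase, was itself higher by 0.23 (SE 0.096), and the 8 neuronal markers as a list had a median of 0.073 with 8 of 8 above 0. The part of neuronal mRNA content in the result was not tested.

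**Figure D2:**
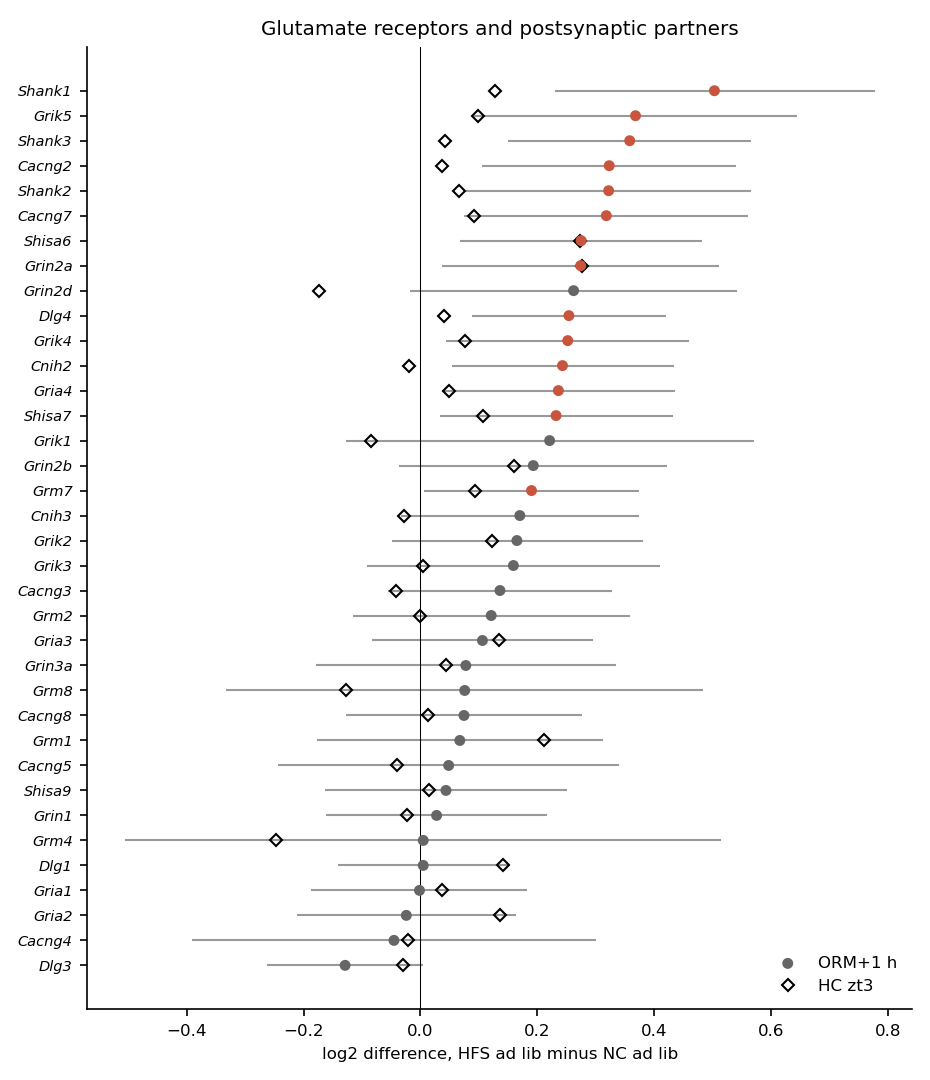
Log2 difference, HFS ad lib minus NC ad lib (horizontal axis) for each of the 36 glutamate receptor and postsynaptic genes, with the 95% interval at ORM+1 h as a gray line. Filled points are ORM+1 h (red where unadjusted p is under 0.05) and open diamonds HC zt3; 32 of 36 filled points lie above 0, and Shank1 is the highest at 0.50.

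Other neuronal lists leaned to the same side with fewer genes at p under 0.05. Of 36 neuropeptide and monoamine receptor genes, 33 were above 0, with a median of 0.19. At p under 0.05 there were 7, all higher, against 5.08% of all genes. In the home cage at zt3 the median was 0.084, or 0.12 without HFS ad lib mice 5 and 6. In both cases 5 were higher and 2 lower at p under 0.05, beside 4.65% and 3.74% of all genes with all mice. The neuropeptide Y receptor Npy2r ranged from 30.5 to 41.1 CPM (median 35.6) under chow and from 37.1 to 52.5 CPM (median 41.2) under HFS, a difference of 0.28 (SE 0.11). The serotonin receptor Htr4 ranged from 5.89 to 6.92 CPM (median 6.68) under chow and from 7.35 to 8.69 CPM (median 8) under HFS, with no overlap at ORM+1 h, a difference of 0.30 (SE 0.12) and a difference at HC zt3 of 0.44 (SE 0.12), or 0.45 without HFS ad lib mice 5 and 6 there. The adrenergic receptors Adra1a and Adrb1 were the lower members with the smallest p, at -0.23 (SE 0.19) and -0.097 (SE 0.13). Among 18 genes of GABA signaling, 2 had p under 0.05, the receptor subunits Gabbr2 at 0.20 (SE 0.095) and Gabrb1 at 0.16 (SE 0.081), while Gphn, the scaffold of inhibitory synapses, was at -0.087 (SE 0.075) and Gabrg1 at -0.18 (SE 0.25). The median of the 18 was 0.089 at ORM+1 h and 0.09 at HC zt3, with 2 higher at p under 0.05 there, and without HFS ad lib mice 5 and 6 the latter was 0.16, with 7 higher.

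Interneuron markers were above 0 in 8 of 8 genes, median 0.19, against -0.15 at HC zt3. Gad1, Gad2 and Slc32a1 of this list are also in the GABA list, and Sst, Vip and Npy also in the neuropeptide list. The 3 lists are therefore not independent of each other. A higher interaction with p under 0.05 was found in 5 of the 8, against 2.81% of all genes. The median interaction was 0.37, and 0.27 without HFS ad lib mice 5 and 6 at HC zt3, where the median was then -0.09 and 3 of 8 had a higher interaction. Pvalb, the calcium buffer of fast-spiking interneurons, ranged from 108 to 133 CPM (median 122) under chow and from 133 to 182 CPM (median 142) under HFS, a difference of 0.26 (SE 0.082) that did not overlap, with an interaction of 0.38 (SE 0.12), or 0.38 without those 2 mice. Lhx6, a transcription factor of the same lineage, differed by 0.25 (SE 0.083). Npy and Sst, neuropeptides of interneurons counted in both lists, differed by 0.28 (SE 0.14) and 0.19 (SE 0.14). Of 22 genes of intracellular calcium handling, Camk2a and the channel Orai3 were higher, the latter by 0.17 (SE 0.072), and Camk2g was lower, at -0.20 (SE 0.074), and Camk2b was at -0.061 (SE 0.07). The median of the 22 was 0.069 at ORM+1 h and 0.088 at HC zt3, or 0.14 without HFS ad lib mice 5 and 6 there.

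Immediate early transcription factors, the class most directly induced by training, were not called between the diets. Of 25 such genes, 16 were below 0 and 9 above, the median was -0.13, and 1 had p under 0.05. In the home cage the median was 0.0042 with all mice, with 1 lower at p under 0.05, and -0.19 without HFS ad lib mice 5 and 6, with 4 lower. The median interaction was -0.077 and 0.04. Fos ranged from 70.7 to 101 CPM (median 94) under chow and from 48.9 to 87.8 CPM (median 78.8) under HFS. The lowest NC ad lib mouse lay below 4 of the 6 HFS ad lib mice, and the log2 difference was -0.31 (SE 0.31, adjusted p = 0.851) with an interval of -0.93 to 0.31. Npas4, an activity-dependent factor of neurons, ranged from 27.5 to 35.1 CPM (median 33.1) under chow and from 12.7 to 31.1 CPM (median 27.4) under HFS, a difference of -0.45 (SE 0.30, adjusted p = 0.644) with an interval of -1.04 to 0.14. Egr4 was at -0.23 (SE 0.15, adjusted p = 0.648), and Arc, a regulator of AMPA receptor endocytosis, at -0.033 (SE 0.20, adjusted p = 1) with an interval of -0.42 to 0.36. The member past p of 0.05 was Gadd45g, a growth arrest gene, which ranged from 34.1 to 50.7 CPM (median 41) under chow and from 26.2 to 40.4 CPM (median 31.1) under HFS, lower, at -0.36 (SE 0.15). Btg2, an antiproliferative gene, was at -0.31 (SE 0.18), and Crem, a cAMP-responsive factor, was on the higher side at 0.17 (SE 0.13). Klf4 was at 0.20 (SE 0.33), and at -0.21 without HFS ad lib mouse 4. The intervals of Fos and Npas4 reach far below 0, so that lower levels of that size lie within the error between these mice.

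Slower activity-induced effectors had no common direction. Of 24, 15 were above 0, the median was 0.046, and 3 were higher and 1 lower at p under 0.05. Sorcs3, a sorting receptor of the postsynaptic density, differed by 0.25 (SE 0.096), Pcsk1, a prohormone convertase, by 0.39 (SE 0.17) and Inhba, the activin subunit, by 0.50 (SE 0.25). Lonrf3 and Rasl11a were on the lower side, at -0.41 (SE 0.17) and -0.27 (SE 0.14), and Bdnf was at 0.20 (SE 0.14). Among 13 feedback inhibitors of MAPK and receptor kinase signaling the median was 0.018, with Spred3 at 0.13 (SE 0.059), Spred1 at 0.19 (SE 0.11), Dusp1 at -0.26 (SE 0.20) and Dusp14 at -0.091 (SE 0.088).

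**Figure D3:**
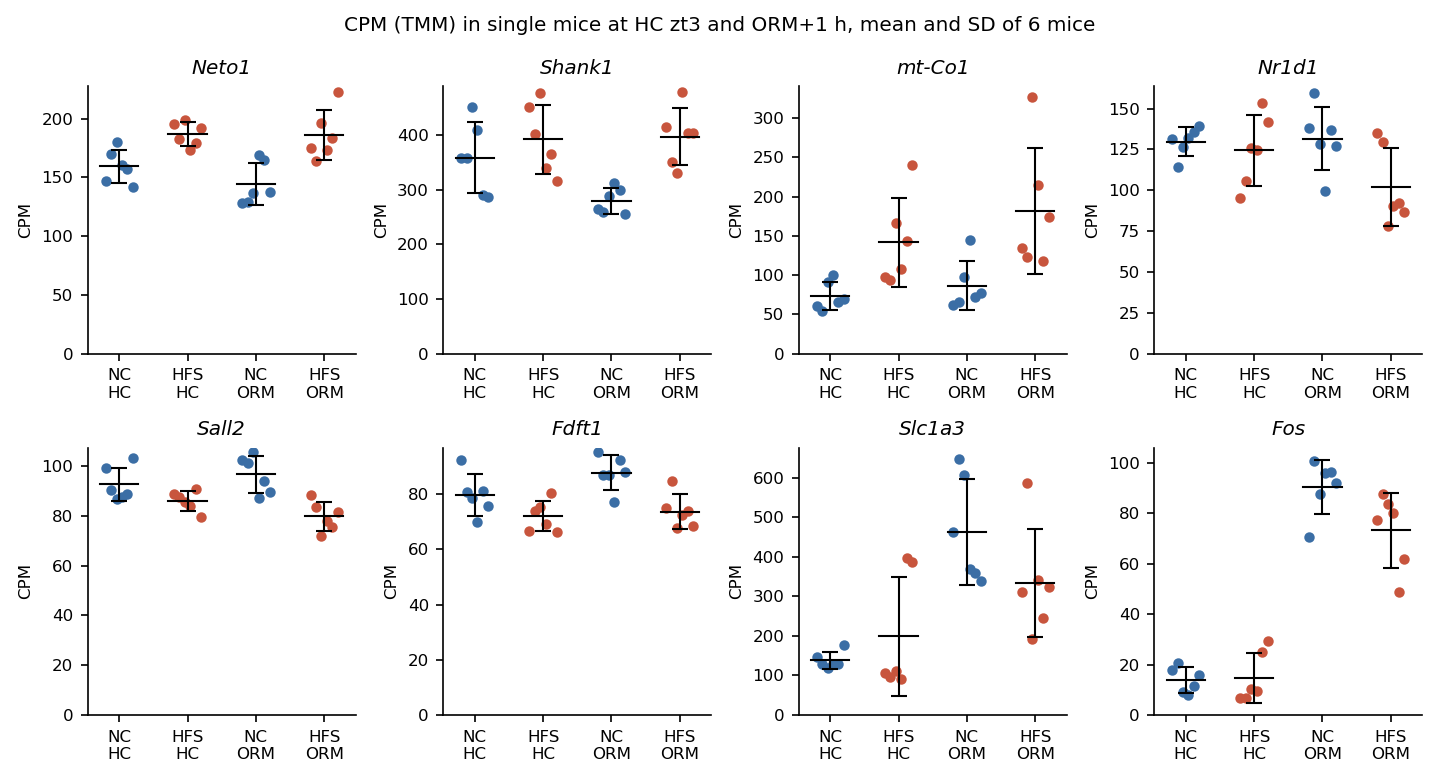
CPM of 8 genes in the 6 mice of each diet (NC, HFS) at HC zt3 (HC) and at ORM+1 h (ORM), 1 point per mouse, with the mean and SD in black. Shank1 is higher in all 6 HFS ad lib mice than in all 6 NC ad lib mice at ORM+1 h, and Slc1a3 and Fos each have 2 HFS ad lib mice that stand apart at HC zt3.

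Astrocyte genes were on the lower side in HFS ad lib mice at ORM+1 h, without passing the threshold. The 9 astrocyte markers summed to 3049 to 4989 CPM (median 3481) in NC ad lib mice and to 1946 to 4472 CPM (median 2759) in HFS ad lib mice. Slc1a2 was the most abundant of them by its mean over all the mice of the study. HFS ad lib mice 2 and 4, at 4472 and 3137 CPM, lay within the chow range, and the other 4 lay below it. All 9 markers were below 0, with a median of -0.47, and 0 of 9 had p under 0.05. The sum was lowest in HFS ad lib mouse 3, at 1946 CPM, and among NC ad lib mice in mouse 4, at 3049 CPM. These same mice had the highest sums of mitochondrially encoded mRNAs of their diets, 1389.7 and 562 CPM, and the part of such shared variation in either result was not tested. In bulk libraries fewer cells of a type and less RNA per cell cannot be told apart.

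The 16 genes of astrocytic glutamate handling, which take up and recycle the transmitter after release, were below 0 in 15 cases with a median of -0.39. At p under 0.05 there were 2 lower, Atp1b2, a subunit of the sodium pump, at -0.36 (SE 0.17), and Slc7a10, a transporter of small neutral amino acids, at -0.83 (SE 0.40). With the choroid plexus score as a covariate, Slc7a10 was at -0.52 and not at p under 0.05. The median of the 16 genes was then -0.40, and 2 were again lower at p under 0.05, Atp1b2 among them. The glutamate transporter Slc1a3 (GLAST) ranged from 338 to 647 CPM (median 415) under chow and from 191 to 587 CPM (median 318) under HFS, a difference of -0.48 (SE 0.30, adjusted p = 0.626), and Slc1a2 (GLT-1) differed by -0.28 (SE 0.21, adjusted p = 0.714). Glul, glutamine synthetase, was at -0.36 (SE 0.22), and Grm5, a receptor also present in neurons, was the 1 member above 0, at 0.12 (SE 0.10). All 8 glutamate genes named by the study, a list chosen on these mice and therefore not independent evidence of its direction, were below 0, from -0.48 to -0.28, among them Slc25a18 at -0.43 (SE 0.29), Grin2c at -0.43 (SE 0.27), Grm3 at -0.42 (SE 0.25) and Slc7a11 at -0.32 (SE 0.25). Of 10 genes of gap junctions, potassium and water handling, 10 were below 0, with Atp13a4 at -0.57 (SE 0.24) and the water channel Aqp4 at -0.47 (SE 0.28).

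With all mice, the same genes lay on the other side of 0 at HC zt3, where 2 HFS ad lib mice stood apart. The median log2 difference of the 16 genes of astrocytic glutamate handling was 0.34 at HC zt3. Their interaction had a median of -0.76, with 10 of 16 lower at p under 0.05, against 3.44% of all genes. Slc1a3 at HC zt3 was 397 and 388 CPM in HFS ad lib mice 5 and 6 and between 92.2 and 111 CPM in the other 4, while NC ad lib mice ranged from 119 to 178 CPM. Fos followed the same split, at 25.1 and 29.4 CPM in mice 5 and 6 and between 6.56 and 10.5 CPM in the other 4. Without these 2 mice, the median at HC zt3 was -0.073, that of the interaction -0.15, and 1 of 16 genes had a lower interaction at p under 0.05. For the 9 astrocyte markers the median at HC zt3 went from 0.44 with all mice to -0.42 without these 2, and that of the interaction from -0.82 to -0.012. The interaction of Slc1a3 was -0.99 (SE 0.43) with all mice and -0.031 without them. That of Fos was -0.38 (SE 0.44) with all mice and 0.44 without them. The 8 glutamate genes named by the study had a median at HC zt3 of 0.41 with all mice and -0.34 without them, and an interaction of -0.78 and -0.084. The diet difference at ORM+1 h does not use these mice other than for the estimate of spread.

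**Figure D4:**
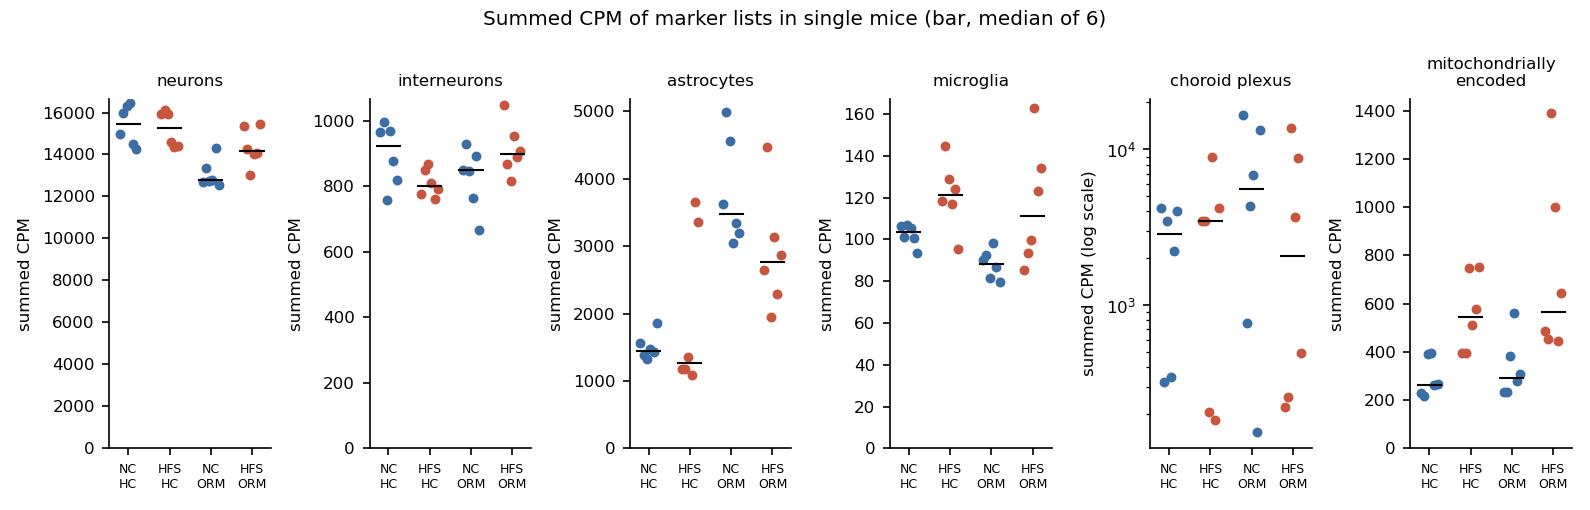
Summed CPM of 6 gene lists in single mice of the 4 groups (HC is HC zt3, ORM is ORM+1 h), 1 point per mouse, with the median as a bar and a log axis for choroid plexus. Choroid plexus markers span 153 to 16676 CPM in NC ad lib mice at ORM+1 h, and 2 HFS ad lib mice at HC zt3 have astrocyte sums of 3660 and 3356 CPM, within the range of the trained NC ad lib mice.

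Thyroid hormone genes showed no shared direction. Of 22 genes for the metabolism, transport and action of the hormone, 12 were above 0, the median was 0.018 and 1 had p under 0.05. This was the receptor Thra, which ranged from 1532 to 1834 CPM (median 1600.0) under chow and from 1617 to 2004 CPM (median 1869.8) under HFS, higher by 0.16 (SE 0.076). The count of Thra joins the isoforms Thra1 and Thra2, which the study examined separately and which were not separated here. Dio2, the deiodinase of astrocytes that makes active T3, ranged from 40.5 to 66 CPM (median 44.2) under chow and from 33.1 to 52.6 CPM (median 43.4) under HFS, with a log2 difference of -0.16 (SE 0.23, adjusted p = 0.937) and an interval of -0.63 to 0.31. Dio3, the deiodinase that inactivates the hormone, ranged from 0.618 to 2.18 CPM (median 1.35) under chow and from 1.19 to 2.83 CPM (median 1.95) under HFS, with a log2 difference of 0.58 (SE 0.38, adjusted p = 0.642) and an interval of -0.18 to 1.33. The coactivator Ppargc1a was at 0.14 (SE 0.079) and the hormone-responsive Aldh1a1 at -0.41 (SE 0.21). Of the 9 thyroid pathway genes named by the study, again chosen on these mice, 7 were below 0 and 2 had p under 0.05, Atp1b2, given with the astrocyte genes, and Med12, a Mediator subunit, which ranged from 7.64 to 11.2 CPM (median 10.1) under chow and from 6.58 to 10.7 CPM (median 7.4) under HFS, lower, at -0.30 (SE 0.13). Notch1 was at -0.25 (SE 0.19), Plcd4 at -0.43 (SE 0.25), Pik3ca at 0.098 (SE 0.082) and Mapk3 at -0.021 (SE 0.061). Med16 had a log2 difference of -0.00091, the value closest to 0 among these 9.

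Clock genes were mostly below 0. Of 22 core clock and output genes, 16 were below 0 and 6 above, and 2 were higher and 3 lower at p under 0.05, with a median of -0.087. At HC zt3 the median was -0.026, with 3 higher and 3 lower. Without HFS ad lib mice 5 and 6 it was -0.036, with 2 higher and 2 lower. With all mice, 0 of the 22 had an interaction at p under 0.05. Training ran between zt2 and zt4 while the labels give zt3 for all these mice. The part of killing time in these values was not tested. Nr1d1, the REV-ERB alpha repressor, ranged from 99.7 to 159.7 CPM (median 133) under chow and from 78.3 to 135 CPM (median 91.1) under HFS, and 4 of 6 HFS ad lib mice lay below all NC ad lib mice, a difference of -0.37 (SE 0.12, adjusted p = 0.489). Bhlhe40, a repressor that also responds to activity, ranged from 179 to 210.2 CPM (median 190.1) under chow and from 138 to 184 CPM (median 165) under HFS, lower, at -0.24 (SE 0.081), and Ciart, a repressor of the loop, was lower, at -0.37 (SE 0.15). Per3 was higher by 0.31 (SE 0.11) at ORM+1 h and by 0.47 (SE 0.11) at HC zt3 (0.39 without HFS ad lib mice 5 and 6 there), and Tef, an output factor, by 0.14 (SE 0.056). Bmal1 was at -0.073 (SE 0.10) and Clock at 0.086 (SE 0.087).

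Genes of lipid synthesis were on the lower side. Of 36 genes of cholesterol and fatty acid synthesis, 30 were below 0 and 12 had p under 0.05, all 12 lower, against 4.48% of all genes, with a median of -0.15. Along the sterol pathway the enzymes Hmgcs1, Mvd, Fdps, Fdft1 and Lss were lower, at -0.19 (SE 0.08), -0.33 (SE 0.098), -0.23 (SE 0.079), -0.25 (SE 0.068) and -0.27 (SE 0.12). Fdft1 ranged from 77 to 95.4 CPM (median 87.4) under chow and from 67.7 to 84.9 CPM (median 73.1) under HFS, with 5 of 6 HFS ad lib mice below all NC ad lib mice. Among the regulators, Srebf1, the transcription factor of lipid synthesis, ranged from 13 to 30.5 CPM (median 22) under chow and from 10.4 to 15.9 CPM (median 14.4) under HFS, a difference of -0.69 (SE 0.25, adjusted p = 0.496). The fatty acid enzymes Scd1, Fasn, Acly and Fads2 were lower, at -0.48 (SE 0.20), -0.21 (SE 0.097), -0.17 (SE 0.075) and -0.41 (SE 0.20). Elovl6, an elongase, was higher by 0.19 (SE 0.11). In the home cage at zt3 the median of the 36 genes was 0.0087, with 3 lower at p under 0.05, among them Fdps at -0.22 (SE 0.079) and Fdft1 at -0.15 (SE 0.068). Without HFS ad lib mice 5 and 6 there the median was -0.026, with 4 lower, and Fdps and Fdft1 were at -0.22 and -0.16. Several of these enzymes are abundant in astrocytes, whose markers were lower in the same mice, and the part of that in the result was not tested.

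Of 29 genes of fatty acid oxidation and PPAR targets, 21 were below 0 and 3 lower at p under 0.05. Fabp7, a fatty acid binding protein of astrocytes and progenitors, differed by -0.52 (SE 0.25), and the acyl-CoA dehydrogenases Acadvl and Acadm by -0.36 (SE 0.17) and -0.33 (SE 0.16), while Acot2 was at 0.16 (SE 0.089) and Ppard at 0.14 (SE 0.094). Of 33 insulin and growth factor genes, 22 were below 0 and 11 above, with a median of -0.068, while at p under 0.05 there were 4 higher and 1 lower. Igf1r, the receptor of insulin-like growth factor 1, ranged from 41.4 to 47.7 CPM (median 45.7) under chow and from 48.4 to 61.1 CPM (median 55.5) under HFS, without overlap, a difference of 0.29 (SE 0.097, adjusted p = 0.496), and it was also higher at HC zt3, by 0.25 (SE 0.097), or 0.28 without HFS ad lib mice 5 and 6 there. The binding proteins Igfbp3 and Igfbp6 were higher by 0.29 (SE 0.11) and 0.32 (SE 0.13), and Foxo1, a factor that insulin signaling holds in check, was lower, at -0.24 (SE 0.11), with Akt2 at -0.18 (SE 0.095). Among 23 glucocorticoid-induced genes, 1 was higher and 2 lower at p under 0.05, where Map3k6 was at 0.39 (SE 0.18), Ddit4 at -0.23 (SE 0.10) and the receptor gene Nr3c1 at -0.19 (SE 0.089).

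Microglial markers lay above 0, while genes of inflammation lay on both sides of it. The 11 microglial markers summed to 79.4 to 98.1 CPM (median 88.4) in NC ad lib mice and to 85.5 to 163 CPM (median 111) in HFS ad lib mice. HFS ad lib mice 4, 5 and 6 lay at 123.1 CPM or above, and mice 1 and 2 within the chow range. All 11 had a log2 difference above 0, with a median of 0.41, and 3 had p under 0.05. Tmem119, a marker of resident microglia, ranged from 2.11 to 3.61 CPM (median 3.06) under chow and from 3.79 to 6.73 CPM (median 4.54) under HFS, without overlap, a difference of 0.71 (SE 0.32). The complement gene C1qb differed by 0.72 (SE 0.30) and the adaptor Tyrobp by 0.59 (SE 0.23). Without training, at HC zt3, the median of the 11 was 0.26, or 0.33 without HFS ad lib mice 5 and 6 there, with 0 at p under 0.05 in both cases. Of 35 genes of inflammation and interferon response, 1 was higher and 1 lower at p under 0.05, the chemokine Ccl3 at 0.68 (SE 0.32) and the NF-kappaB subunit Rela at -0.31 (SE 0.13). In the home cage the median of these 35 genes was 0.38, with 7 higher at p under 0.05, and without the same 2 mice 0.23, with 3 higher. Gfap, an astrocyte filament that increases in gliosis, was at -0.43 (SE 0.23), and Lcn2 was at most 0.886 CPM in any mouse.

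Matrix genes were mostly below 0, in 24 of 29, with 4 lower and 1 higher at p under 0.05. Their median was -0.18, and -0.10 with the choroid plexus score as a covariate. At HC zt3 it was 0.13, or 0.088 without HFS ad lib mice 5 and 6. Mmp14, a membrane protease, differed by -0.47 (SE 0.16), the laminin subunit Lama2 by -0.39 (SE 0.17), the proteoglycan Bcan by -0.43 (SE 0.20) and Tnc by -0.77 (SE 0.37), while Tnr, a perineuronal matrix protein, was higher by 0.19 (SE 0.09) and Acan at 0.28 (SE 0.18). In the Notch and Wnt pathways, 2 of 34 were higher and 1 lower at p under 0.05. These were the GSK3-binding proteins Frat1 and Frat2, at 0.25 (SE 0.082) and 0.21 (SE 0.1), and the Notch target Heyl at -0.77 (SE 0.37), with Hes5 at -0.61 (SE 0.33). Markers of meninges were below 0 in 8 of 8, with a median of -0.42, those of ependyma in 6 of 7, with a median of -0.66 (-0.31 with that covariate), and those of choroid plexus in 14 of 14, with a median of -0.53 and 0 of these 3 lists' markers at p under 0.05. The 6 blood markers were all above 0, with a median of 0.29 and 0 at p under 0.05. The 8 dentate granule cell markers were all below 0, with a median of -0.08, and those of CA pyramidal cells had a median of -0.012. Markers of myelinating oligodendrocytes had a median of 0.079, those of their precursors of -0.12 and those of endothelial cells and pericytes of -0.022. Markers of tissue next to the hippocampus had medians of -0.46 for thalamus and habenula, 0.25 for striatum and -0.045 for neocortex, with at most 1 gene of each list at p under 0.05.

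Of the 24 lists, the mitochondrially encoded mRNAs had the median farthest from 0, both at ORM+1 h and at HC zt3. All 13 protein genes of the mitochondrial genome were above 0 at ORM+1 h, with a median log2 difference of 1.16, and 9 had p under 0.05. At HC zt3 the median was 0.97, with 10 higher at p under 0.05, or 0.94 with 8 higher without HFS ad lib mice 5 and 6 there, and with all mice 0 of 13 had an interaction at p under 0.05. The cytochrome oxidase subunit mt-Co1 ranged from 62.1 to 145 CPM (median 74.2) under chow and from 118 to 327 CPM (median 154) under HFS. NC ad lib mouse 4, at 145 CPM, lay above 3 of the 6 HFS ad lib mice, and HFS ad lib mouse 3 was the highest, at 327 CPM. The log2 difference of mt-Co1 was 1.07 (SE 0.29, adjusted p = 0.469) with an interval of 0.49 to 1.65. That of the complex I subunit mt-Nd5 was 1.26 (SE 0.34, adjusted p = 0.469). Both passed the threshold of the edgeR test with a replicate block, which was not taken as a pairing. Their adjusted p were 0.019 and 0.0078 in the 12-group model, and 0.00642 and 0.00508 with only the 2 groups compared. Summed over the 13 genes, these mRNAs were 0.0233% to 0.0582% of the counts of NC ad lib mice and 0.0448% to 0.144% of those of HFS ad lib mice. The astrocyte sums of the mice highest in these mRNAs, HFS ad lib mouse 3 and NC ad lib mouse 4, were the lowest of their diets. As background, these mRNAs are translated by mitochondrial ribosomes, which lack S6. Reads shared with nuclear copies of mitochondrial sequence are lost where uniquely mapped reads are counted, which makes the single genes uncertain.

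Nuclear genes of the respiratory chain lay closer to 0. Of 86, 57 were below 0, with a median of -0.039, and 1 was higher and 4 lower at p under 0.05, Cox6a2 at 0.37 (SE 0.16) and Sdhc at -0.26 (SE 0.12) among them, with Cox6c at 0.12 (SE 0.076), and the pseudogene Uqcrh-ps1 was at most 0.306 CPM under chow and 0.102 CPM under HFS. Of 84 cytosolic ribosomal protein genes 57 were below 0, with a median of -0.031 and 1 lower at p under 0.05, Rpl6l at -0.24 (SE 0.12), whose reads may be shared with its near copy Rpl6, at -0.14 (SE 0.072). At HC zt3 the medians of these lists were -0.12 and -0.12, with 17 and 19 genes lower at p under 0.05. Without HFS ad lib mice 5 and 6 there the medians were -0.12 and -0.16, with 13 and 36 genes lower. Of 12962 protein-coding genes with a mean of at least 1 CPM, 540 (4.17%) were lower at HC zt3 with all mice and 365 without these 2. Shares differed with genomic span. At HC zt3 with all mice, 8.39% of the 3241 genes of shortest span (median 6923 bases) were lower and 2.34% higher. Of the 3241 genes of longest span (median 127741 bases), 1.08% were lower and 9.81% higher. At ORM+1 h, 5.58% of the shortest were lower and 5.58% higher, and 3.86% of the longest were lower and 7.37% higher. The part of gene span in the list counts was not tested. Of 25 heat shock and unfolded protein response genes 1 was lower at p under 0.05, the cochaperone Dnajb1 at -0.25 (SE 0.12), with Hyou1 at 0.16 (SE 0.14), Hspe1 at 0.11 (SE 0.089) and Hsp90ab1 at -0.095 (SE 0.095).

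**Figure D5:**
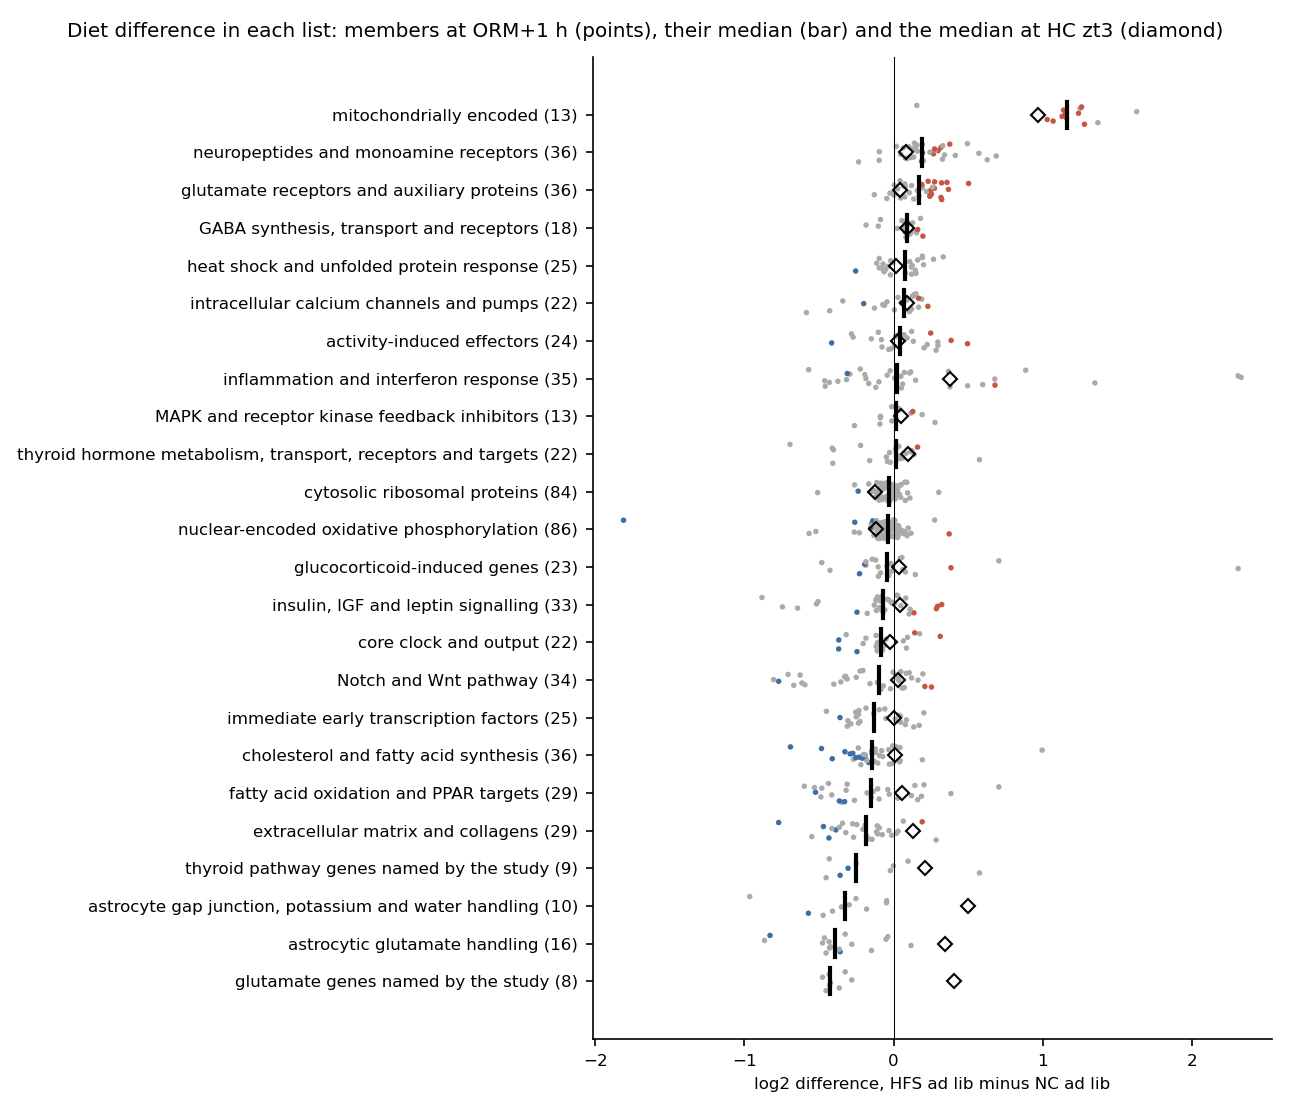
Log2 difference, HFS ad lib minus NC ad lib (horizontal axis) for the members of 24 gene lists, with the number of genes tested in parentheses. Points are members at ORM+1 h (red higher and blue lower at unadjusted p under 0.05, gray otherwise), bars the list's median at ORM+1 h and diamonds its median at HC zt3; the mitochondrially encoded list is near 1 in both conditions, and the astrocyte lists lie on opposite sides of 0 with all mice but on the same side without HFS ad lib mice 5 and 6 at HC zt3 (not drawn).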

How the data were processed

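mRNA bound to ribosomes with phosphorylated S6 was purified from hippocampus by pS6-TRAP and sequenced. The authors trimmed reads with Trim Galore 0.6.7 (cutadapt 3.4), aligned them to GRCm39 with HISAT2 2.2.0 and assigned uniquely mapped reads to genes by featureCounts (Subread 2.0.3), and the deposited values are these raw counts for 57010 genes in 71 mice. Most low counts were even (104435 values of 2 and 30176 of 1). Where both mates of a read pair were counted, the totals and the count minimum given here are in reads and exceed the number of fragments, and this was not tested beyond refitting with the counts halved. Here 30141 genes with at least 10 counts in total were kept and 1 model of all 12 groups of the study was fitted with edgeR 4.0.16 (TMM, quasi-likelihood test, R 4.3.3), with a diet contrast at ORM+1 h, at HC zt3 and their interaction, Benjamini-Hochberg adjustment over all genes and a threshold of 0.05. Standard errors and 95% intervals came from the same fit. The study used DESeq2, which was run as an alternative (1.42.0). Replicates are single mice, and the labels give no cages or batches. The study describes HC zt3 and ORM+1 h as its first experiment and the later time points as its second. The 12-group model joins both. Depth was 49188472 to 58659920 counts per mouse at ORM+1 h, and the errors given hold counting error and the spread between mice together. Named genes are the 5 with the smallest p in each direction, up to 2 higher and 2 lower members with the smallest p of each list, Fos, Arc, Npas4, Egr4, Dio2, Dio3 and the genes the study named, and some of these genes are not reported here. The members and gene lists were chosen with earlier results of these data known. Alternatives changed the normalization, filter, samples, covariates, replicate block and tool, halved the counts, or left out 1 mouse at a time. The scripts were tested on simulated data. No DNA sequence is shown since no result turns on one.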

Additional observations from a re-analysis of the deposited data

Results flagged for a closer look

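In the groups of 6 mice at ORM+1 h, 14 of 250 sets of 6 values (5.6%) for the named genes and summed lists held a mouse far from the other 5 by Dixon's criterion, and chance gives about 1 in 20. Exoc7 was 48.8 CPM in NC ad lib mouse 4, below the next value of 61.4, and 60.8 CPM in HFS ad lib mouse 1, above the next value of 51.9. NC ad lib mouse 4 also stood apart for Ppard, at 32.3 CPM against 24.8, and for Camk2g, at 124.3 CPM against 151.1. NC ad lib mouse 5 was apart for Igfbp3 (22.2 CPM against 16.8), Frat1 (26.6 CPM against 22.6) and Rpl21 (57.5 CPM against 83.2). NC ad lib mouse 3 was high for Nr3c1, at 66.2 CPM against 53.6. HFS ad lib mouse 2 was high for Sorcs3 (73.8 CPM against 56.9) and Notch1 (14.2 CPM against 8.65). HFS ad lib mouse 4 was high for Klf4, at 2.82 CPM against 1.25, and for Lcn2, at 0.886 CPM against 0.274. Lcn2 was also apart in NC ad lib mouse 6, at 0.145 CPM against 0.0383. HFS ad lib mouse 1 was low for Rpl6l, at 9.45 CPM against 11.8.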

How the results depend on the processing

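The count of 0 genes between the diets at ORM+1 h was 87 (77 higher, 10 lower) with a replicate block in the 12-group model. Shank1, Shank3, Cacng2, Grik5, Nr1d1 and the mitochondrially encoded mt-Rnr1, mt-Nd1, mt-Nd2, mt-Co1, mt-Nd4, mt-Nd5 and mt-Cytb were among them. The count was 21 (21 higher, 0 lower) with a replicate block and only the 2 groups compared. These included the same mitochondrially encoded genes, mt-Rnr2, Shank1, Meg3, Miat and Snhg11. The count was 1 (Dzip1) with only the groups compared and no block, and 25 with the DESeq2 Wald test. In the other alternatives run it was 0, among them leaving out each mouse in turn (0 to 0 over 12 settings), halving the counts, the choroid plexus covariate and leaving out HFS ad lib mice 5 and 6 at HC zt3 (the halving and the 2 left-out mice were chosen after seeing the data). At HC zt3 and for the interaction the count was 0 in every alternative run, with 0 to 0 over 12 and 24 left-out mice. The replicate numbers share only a number. Correlations of the deviations of same-numbered mice at ORM+1 h were -0.531, 0.65, -0.0561, 0.213, -0.659 and -0.38 for numbers 1 to 6, so the block was not taken as a pairing. Of 2590 alternative values of 108 named genes, 2542 had the same direction and side of the threshold, 21 passed the threshold in the same direction and 27, in 5 genes, had the other sign. Med16, at -0.000908 on the log2 scale, was 0.00869 with DESeq2 size factors, 0.00979 with at least 1 count, 0.0231 with filterByExpr, 0.0089 with protein-coding genes alone, 0.000822 with the replicate block in the 12-group model, 0.00589 with the oligodendrocyte covariate, 8.38e-05 with counts halved, 0.0117 with only the groups compared, 0.0122 with the block in those and 0.00879 with DESeq2. Mapk3 was 0.00256 with filterByExpr. With each mouse left out in turn, Klf4 ranged from -0.208 to 0.326, Cacng4 from -0.0987 to 0.0201, Med16 from -0.0207 to 0.0324, Arc from -0.12 to 0.0417 and Mapk3 from -0.0629 to 0.0127, with Klf4 negative without HFS ad lib mouse 4. The cause was not tested. The 95% intervals, with a median half-width of 0.213, are unadjusted. Differences whose interval left out 0, such as that of Shank1, were not called in the 12-group edgeR model without a block.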

Other observations

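Long noncoding RNAs, a class chosen after its values were seen, stood mostly on the higher side in HFS ad lib mice at ORM+1 h. Of 860 with a mean of at least 1 CPM, 104 were higher (12.1%) and 2 were lower (0.233%) where the unadjusted p of edgeR was under 0.05, against 783 higher (6.04%) and 771 lower (5.95%) of 12962 protein-coding genes. Snhg11, a host of small nucleolar RNAs, ranged from 25.3 to 29.5 CPM (median 27.2) under chow and from 33 to 53 CPM (median 39.3) under HFS, without overlap, and Meg3, a maternally expressed RNA, ranged from 34.4 to 51.5 CPM (median 44.8) under chow and from 56.6 to 88.6 CPM (median 65.1) under HFS, also without overlap. Their log2 differences were 0.64 and 0.67. Bc1, a short dendritic RNA of 176 bases that the annotation places in this class, differed by 0.98. It ranged from 1.39 to 1.82 CPM (median 1.71) under chow and from 2.26 to 6.37 CPM (median 2.68) under HFS. Miat differed by 0.59, while the nuclear RNAs Malat1 and Neat1 were at 0.31 and 0.014. At HC zt3, 38 of the 860 were higher (4.42%) and 5 were lower by the same criterion, and 18 (2.09%) and 5 without HFS ad lib mice 5 and 6 there. Meg3, Miat and Snhg11 lay on the side of the second principal component that the mitochondrially encoded genes led, opposite to astrocyte genes, and the part of this shared variation between mice in the result was not tested. The adjusted p of these genes in the 12-group edgeR model without a block were 0.469 or more, while Meg3, Miat and Snhg11 passed the threshold with a replicate block and only the 2 groups compared.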
